A study of Mus musculus with 7 samples.

Results

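Markers of the endothelium, the cell layer lining blood vessels and liver sinusoids, were measured in the livers of old female mice: Eng, Pecam1, Cdh5, Kdr, Flt1, Tek, Tie1, Mrc1, Fcgr2b and Vwf. The 10 genes were chosen by name as known markers, and a probe set was taken where the platform annotation gave it a single gene symbol and that symbol was on the list. All 10 genes had a probe set, 13 of the 12488 probe sets on the array and 10 of 8251 named genes. Liver RNA of 7 animals was hybridised to 7 Affymetrix mouse U74Av2 arrays, 1 animal on each. The animals were female, phenotypically normal (+/+ or +/df), fed without restriction and killed at an age of 24 to 26 months. The title, source name and series title name normal animals, whereas the description field of the same samples names the Ames dwarf genotype (df/df), and the titles were followed here. The replicate numbers 1, 2, 3, 4, 6, 7 and 8 come from the titles. All 7 samples formed 1 group, so what can be read is each member's level and how far the animals differed, with a precision set by having only 7 arrays. That each RNA came from its own animal follows from the wording of the labels but is not spelled out in them, and any technical variation is part of the spread.

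Endothelial cells hold each other through cadherins and respond to growth factors through receptor tyrosine kinases. VEGF ligands act through Kdr and Flt1, angiopoietins act through Tek with Tie1 as its partner, and ligands of the TGF-beta family act through receptor complexes that include Eng. Sinusoidal endothelium of the liver differs from the lining of larger vessels: it is perforated, takes up waste molecules from blood and carries the scavenger and Fc receptors Mrc1 and Fcgr2b, while Vwf is known mainly from larger vessels and platelets. Mrc1 is also known in macrophages, Fcgr2b in macrophages and B cells, and Pecam1 in platelets and leukocytes.

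The upstream sequences of Eng and Tie1 are shown because these genes had the highest correlation of any member pair across animals. That of Kdr is shown because Kdr was the only tested member not lowest on replicate 3. Each is the stretch of 250 bases that ends just before the RefSeq transcript start in GRCm38.p6, written 5′ to 3′ on the strand of the gene. Capitals mark CAGGAA or AGGAAG on either strand, hexamers that hold the core bound by ETS transcription factors and that can overlap each other. The stretches lie at chr2:32646345-32646594 on the plus strand for Eng, at chr4:118489850-118490099 on the minus strand for Tie1 and at chr5:75978456-75978705 on the minus strand for Kdr.
Eng: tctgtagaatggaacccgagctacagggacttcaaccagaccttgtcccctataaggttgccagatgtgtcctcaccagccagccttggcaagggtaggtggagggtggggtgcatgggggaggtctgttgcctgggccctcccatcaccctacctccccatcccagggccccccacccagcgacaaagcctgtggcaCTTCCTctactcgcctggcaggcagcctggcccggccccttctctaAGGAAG
Tie1: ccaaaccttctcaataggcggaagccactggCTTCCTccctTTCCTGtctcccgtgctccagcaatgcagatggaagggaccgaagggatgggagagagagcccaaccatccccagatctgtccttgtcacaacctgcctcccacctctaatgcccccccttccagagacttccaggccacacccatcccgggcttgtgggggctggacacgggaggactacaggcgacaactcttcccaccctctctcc
Kdr: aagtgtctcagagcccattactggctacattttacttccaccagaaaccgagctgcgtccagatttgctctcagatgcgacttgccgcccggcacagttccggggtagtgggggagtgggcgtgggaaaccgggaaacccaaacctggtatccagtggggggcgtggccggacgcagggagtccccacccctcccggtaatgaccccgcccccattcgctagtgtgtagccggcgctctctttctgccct
The Eng stretch held AGGAAG at 2 places, which start 52 and 6 bases before the transcript start. That of Tie1 held AGGAAG and CAGGAA once each, starting 219 and 209 bases before it. The Kdr stretch held neither hexamer, which says only that these letters are not in this window. The RefSeq promoter table used here held 7 members, and the stretches of Cdh5, Pecam1 and Vwf were not analysed here. Of the 7 stretches, 5 (those of Eng, Tie1, Tek, Flt1 and Mrc1) held at least 1 of the hexamers, as did 41.2% of the 32851 stretches of that length in the table. CAGGAA alone was in 25.7% of all stretches and AGGAAG alone in 29.5%. TATAAA was found in the Flt1 stretch and in none of the other 6, against 12.4% of all stretches, and AGATAA, a hexamer read by GATA factors, was found in none of the 7, against 9.99% of all. A match is a description of the letters and not a site.

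Signals are intensities on a linear scale, scaled to a common trimmed mean of 500.4 on each array. The signal of a gene depends on its probes as well as on its transcript, so levels are set side by side across animals and not between genes. Values under 50.04 were treated as lying at a floor, and genes with a mean of at least 200.1 were tested. Eng, Cdh5, Kdr, Tie1, Mrc1 and Fcgr2b passed this filter, and Pecam1, Flt1, Tek and Vwf did not. The arrays resembled one another, with Pearson correlations between arrays of 0.961 to 0.975 across tested genes, which are not independent replicates. Bacterial spike-in controls split them into 2 sets, replicates 1 to 4 at mean log2 signals of 10.64 to 10.97 and replicates 6 to 8 at 10.20 to 10.24. Signal ratios of the 3' over the 5' control probe sets, a sign of RNA integrity, were 0.788 to 0.907 for Gapdh and 1.31 to 1.78 for beta-actin. No 2 arrays held identical values. The summed signal of 4 skeletal muscle markers was 8119 and 3548 on replicates 1 and 2, against 439 to 623 on the other 5. Acta1 weighed most in this sum, at 5991 and 2034. Atp2a1 and Myl1 were high there too, whereas Ckm was not, at 144 and 170 against 147 to 210 on the others. Smooth muscle markers also stood apart on replicates 1 and 2. The summed signal of Acta2, Tagln, Myh11 and Cnn1 was 682 and 931 there, against 228 to 274 on the other 5. Acta2, Myh11 and Cnn1 were below the floor on 4, 5 and 6 of 7 arrays.

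Eng, or endoglin, a co-receptor for TGF-beta and BMP ligands (NCBI gene 13805), had signals of 2619, 2401, 1627, 2801, 2115, 2436 and 2038 on replicates 1, 2, 3, 4, 6, 7 and 8. Replicate 3 was the lowest, and the other 6 animals lay within 2038 to 2801. The mean was 2291 ± 395 (SD, n = 7), and the highest animal had 1.72 times the signal of the lowest.

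The members that hold cells together were Cdh5 and Pecam1. Cdh5, the cadherin that joins endothelial cells (NCBI gene 12562), had 414, 365, 248, 365, 381, 493 and 446, with a mean of 388 ± 77.1 (SD, n = 7). Replicate 3 was again the lowest, replicate 7 the highest, and replicates 2 and 4 were next to the bottom. Pecam1, an adhesion receptor of the cell border (NCBI gene 18613), had 157, 193, 107, 217, 77.5, 132 and 159.8, with a mean of 149 ± 48.2 (SD, n = 7). It was lowest on replicate 6 and next lowest on replicate 3, and its highest signal, on replicate 4, was 2.80 times its lowest. Pecam1 stayed above the floor on all 7 arrays but did not reach the level at which genes were tested.

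Of the VEGF receptors, Kdr did not share that order and Flt1 was lowest on replicate 3. Kdr, the main signalling receptor for VEGF (NCBI gene 16542), had 309, 495, 418, 367, 427, 413 and 344, with a mean of 396 ± 61.4 (SD, n = 7). Replicate 1 was the lowest and replicate 2 the highest, while replicate 3 had the third highest signal. Flt1, which binds VEGF tightly and can act as a decoy (NCBI gene 14254), had 170.1, 169, 155, 241, 164, 179 and 192, with a mean of 182 ± 28.9 (SD, n = 7). Replicate 4 stood above the other 6 animals, which lay within 155 to 192. A second Flt1 probe set was below the floor on 6 of 7 arrays, with a mean of 39.7.

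Of the Tie receptors, Tie1 (NCBI gene 21846) had signals of 370.0, 402, 228, 415, 331, 384 and 349, with a mean of 354 ± 63.0 (SD, n = 7). Replicate 3 was the lowest by a wide margin, since the next lowest animal, replicate 6, had 331. Its second probe set, of a design that can read related sequences, was also lowest on replicate 3, at 139, close to the 140 on replicate 1. That probe set was highest on replicate 4, at 194, with a mean of 162 ± 18.9. The 2 probe sets had r = 0.635 and rho = 0.571 across animals (exact permutation p = 0.142 and 0.2, and 0.427 for r after adjustment over the 3 genes with several probe sets). Tek, the angiopoietin receptor (NCBI gene 21687), had 128, 165, 113, 175, 162, 108 and 143, with a mean of 142 ± 26.6 (SD, n = 7). Replicates 7 and 3 were the lowest, at 108 and 113, and replicate 4 the highest.

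Mrc1 and Fcgr2b, the receptors for uptake, were low on replicates 1 and 3 alike. Mrc1, the mannose receptor (NCBI gene 17533), had 265, 482, 256, 351, 369, 319.9 and 409, with a mean of 350.2 ± 80.0 (SD, n = 7). Fcgr2b, the inhibitory Fc receptor that clears immune complexes in sinusoids (NCBI gene 14130), had 357, 529.8, 353, 545, 472, 475 and 435, with a mean of 452 ± 75.9 (SD, n = 7). Its probe set is of a design shared between related sequences, so it may also read other Fc receptors. For both genes the 2 lowest animals were replicates 1 and 3, at 265 and 256 for Mrc1 and 357 and 353 for Fcgr2b. The lowest values on the other 5 were 319.9 and 435.

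Vwf, the adhesive protein that captures platelets (NCBI gene 22371), was dim. It had 53.2, 187, 20.8, 37.1, 107, 98.9 and 83.7, with a mean of 84.0 ± 55.5 (SD, n = 7). It was below the floor on replicates 3 and 4, and highest on replicate 2. A second Vwf probe set was below the floor on all 7 arrays, with a mean of 20.4. The 2 probe sets of Vwf had r = -0.393 and those of Flt1 r = -0.063 (exact permutation p = 0.381 and 0.881, rho = -0.286 and -0.357), with 1 probe set of each gene largely or wholly below the floor. These correlations used log2 signals before the floor was applied, so they compare values that may be background.

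**Figure D1:**
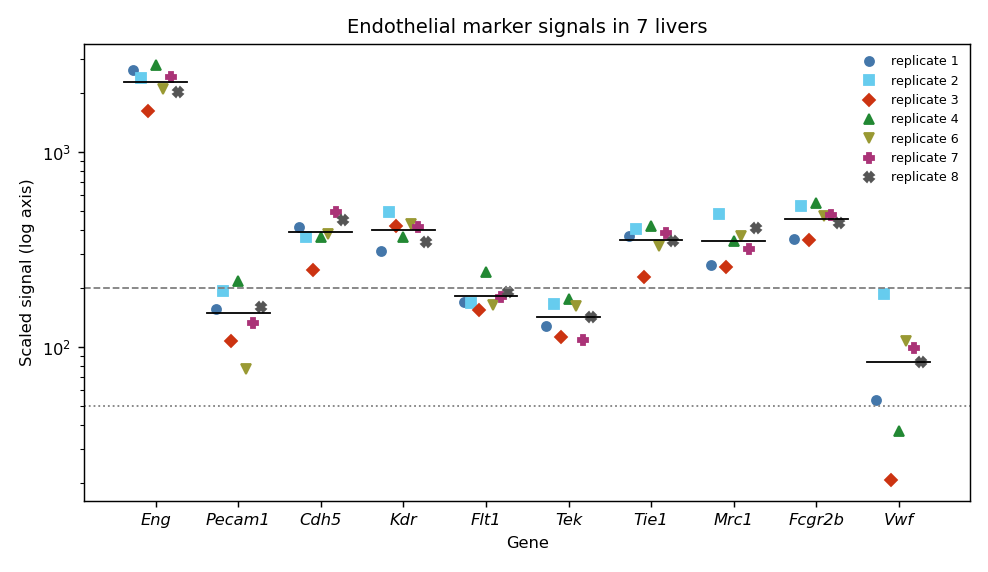
Scaled signal (log axis) of the 10 endothelial markers, with 1 symbol for each of the 7 animals and a bar at the mean; the dashed line is the level at which genes were tested (200.1) and the dotted line the floor (50.04). Replicate 3, the red diamond, is the lowest animal for 7 genes, while for Kdr it lies at 418, above the mean of 396.

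Replicate 3 had the lowest signal of 7 of the 10 members: Eng, Cdh5, Flt1, Tie1, Mrc1, Fcgr2b and Vwf. It was the lowest animal for 13.5% of all named genes. Among tested members it was the lowest for 5 of 6, all but Kdr, where it was the lowest for 14.0% of tested genes. Replicate 3 was singled out after these values were seen, so the count is a description. The count of 7 uses signals before the floor, and Vwf was below the floor on both replicates 3 and 4. For 3 other members the margin was small: Fcgr2b had 353 against 357 on the next lowest animal, Mrc1 256 against 265 and Flt1 155 against 164. The deviation of replicate 3 from the gene mean on the log2 scale was -0.61 for Cdh5, -0.61 for Tie1, -0.47 for Eng, -0.42 for Mrc1 and -0.34 for Fcgr2b, against 0.09 for Kdr. At the other end, replicate 4 had the highest signal of 6 members (Eng, Pecam1, Flt1, Tek, Tie1 and Fcgr2b), and it was the highest animal for 16.9% of all named genes. Replicate 2 was highest for Kdr, Mrc1 and Vwf, and replicate 7 for Cdh5. The smooth muscle sum was also highest on replicate 2, and its part in these 3 high values was not tested. In whole liver RNA, fewer cells of a type and less RNA per cell cannot be told apart.

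**Figure D2:**
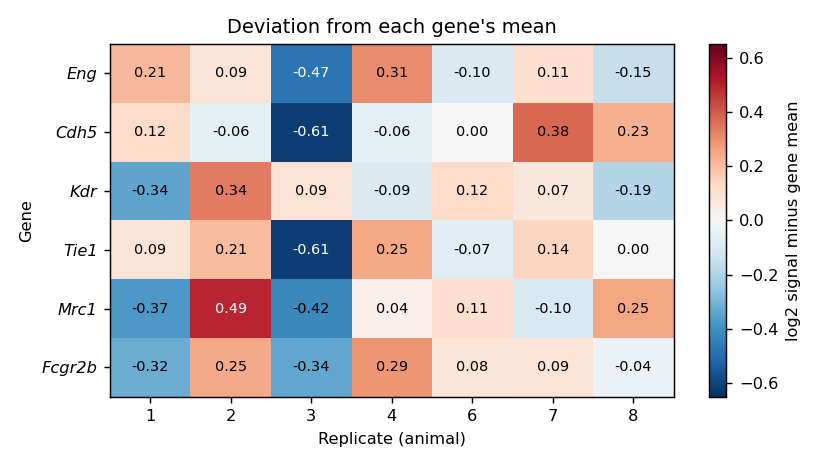
Deviation of the log2 signal from the gene's own mean (colour and printed value) for the 6 tested members, in rows, on the 7 animals, in columns. The column of replicate 3 is negative for 5 members, down to -0.61, and 0.09 for Kdr.

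The spread of each tested member was set against that of genes of the same level with limma's intercept-only fit and an upper-tail F test. No tested member passed: 0 of 6 had an adjusted p under 0.05, where 0% of the 4481 tested genes passed, and 0 of 6 had an unadjusted p under 0.05, where 6.72% (301 genes) did. The log2 SD was 0.33 for Mrc1, 0.31 for Cdh5, 0.29 for Tie1, 0.26 for Eng, 0.25 for Fcgr2b and 0.23 for Kdr. The median was 0.28 over these 6 and 0.18 over all tested genes. All 6 had an SD above that expected at their level, from 1.11 times for Kdr to 1.71 times for Eng, as did 49.1% of tested genes. The limma-based p of Eng was 0.117 before and 0.947 after adjustment over all tested genes, and the adjusted p of the other 5 was 0.990 for each. Without replicate 3 the log2 SD was 0.12 for Tie1 and 0.17 for Cdh5, so these 2 spreads rest largely on that animal, while that of Mrc1 was 0.30 and that of Kdr 0.24. In simulated data for the same 4481 genes 0% of genes with a spread made 2 times larger and 16.5% of those with one made 5 times larger were called, so a modest excess in single genes was not detectable with 7 arrays.

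The tested members were then compared pair by pair across animals, 15 pairs in all. Eng and Tie1 had the highest correlation, with r = 0.923 and rho = 0.821 (exact two-sided permutation p = 0.004 and 0.034). After adjustment over the 15 pairs the exact permutation p was 0.060 for r and 0.256 for rho, so the pair did not pass. For Eng and Tie1, r was 0.788 without replicates 3 and 8, the 2 arrays farthest from the median of Eng, 0.812 without replicate 3 and 0.949 with the means of the 2 array sets removed. Of the 4480 other tested genes, 7 had a higher r with Eng than Tie1 had, and 9 had a higher r with Tie1 than Eng had. The adjusted p for r was 0.045 with quantile normalization and 0.035 without replicate 1 (exact permutation), both of which pass. Each array set holds too few animals, 4 and 3, for a correlation of its own.

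Fcgr2b and Mrc1 followed, with r = 0.778 and rho = 0.571 (exact permutation p = 0.042 and 0.2, adjusted p = 0.263 for r and 0.75 for rho). Their r was 0.140 without replicates 1 and 3, the 2 arrays where both genes were low, and 0.772 with set means removed. Fcgr2b and Tie1 had r = 0.702 and rho = 0.857 (exact permutation p = 0.053 and 0.024, adjusted p = 0.263 and 0.256), 0.814 without replicates 1 and 3, and 0.701 with set means removed. Cdh5 and Tie1 had r = 0.748 but rho = 0.071 (exact permutation p = 0.0998 and 0.906, adjusted p = 0.374 and 1), and r = -0.242 without replicate 3. The r of Cdh5 and Eng likewise was 0.603 on all 7 arrays (rho = 0.143, exact permutation p = 0.157 and 0.783, adjusted p = 0.470 and 1) and -0.260 without replicate 3. None of the 15 pairs passed after adjustment on all 7 arrays, and 3 did without replicate 1: Eng with Tie1, Eng with Fcgr2b and Fcgr2b with Tie1, each at an adjusted p of 0.035 (exact permutation).

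Over the 15 pairs r was positive in 12, where 50.0% of all pairs of tested genes were, and the median r was 0.47, against 0.00035 over all pairs of tested genes. The 3 negative pairs all held Kdr, with r = -0.300 for Cdh5, -0.257 for Eng and -0.098 for Tie1, while Kdr had r = 0.471 with Mrc1 and 0.470 with Fcgr2b (exact permutation p from 0.289 to 0.824, adjusted p for r from 0.482 to 0.824, rho from -0.393 to 0.357). Without replicate 3, r was positive in 8 of 15 pairs and the median was 0.077. The r values without that animal were 0.812 for Eng and Tie1, 0.730 for Kdr and Fcgr2b, 0.706 for Kdr and Mrc1, 0.666 for Fcgr2b and Mrc1 and 0.491 for Fcgr2b and Tie1. Much of the positive correlation among members was thus absent without replicate 3, though these 5 pairs were among the 8 with a positive r, and that of Fcgr2b and Mrc1 was 0.140 once replicate 1 was left out too.

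**Figure D3:**
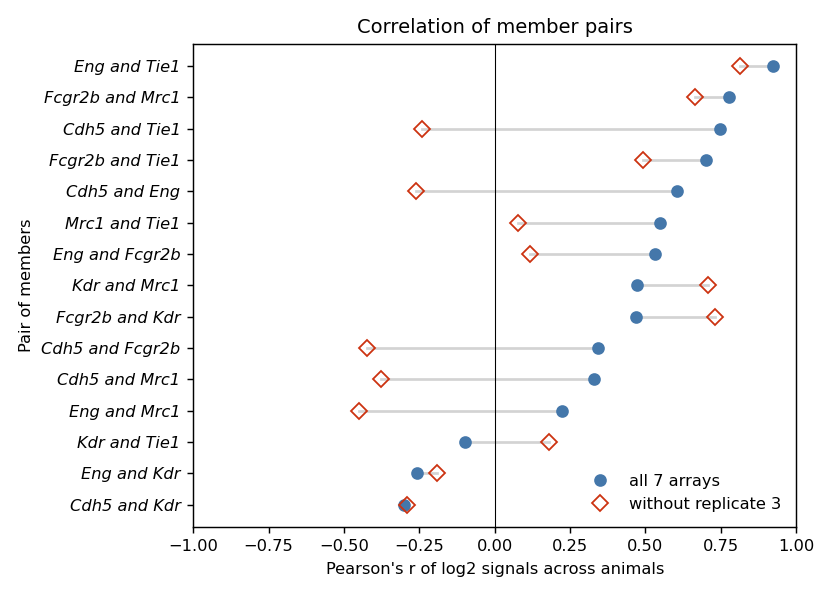
Pearson's r of log2 signals for the 15 pairs of tested members across 7 animals (filled blue circles) and without replicate 3 (open red diamonds), with a grey line joining the 2 values of a pair. Eng and Tie1 stay at 0.812 or above in both, whereas Cdh5 and Tie1 go to -0.242 without replicate 3.

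Other cell types were read beside the endothelial genes. Mrc1 and Fcgr2b were each compared with the macrophage genes Clec4f, C1qa, C1qb, Csf1r and Cd68, 10 relations in all. Their r ranged from -0.434 (Mrc1 with Cd68) to 0.452 (Mrc1 with C1qb) and rho from -0.464 to 0.464, with exact permutation p from 0.302 to 0.976 and adjusted p of 0.945 or more. None of the 10 passed, and 7 animals leave wide room around each value. The macrophage markers summed to 6277 on replicate 3, against 6470 to 8561 on the other 6, over 9 measured genes. Of these, 2 (C1qb and C1qc) were lowest on replicate 3, as were 13.5% of all named genes. The Kupffer cell lectin Clec4f had 1572 ± 198 and the complement gene C1qa 1484 ± 194 (SD, n = 7 each), while Marco was below the floor on 6 of 7 arrays, with 68.3 on replicate 7, and Adgre1 ranged from 93.8 to 209. The B cell markers summed to 579.6 on replicate 3, against 735 to 887 on the other 6, over 4 measured genes. Their members Ms4a1 and Cd79a were lowest on replicate 3, at 318 and 175, while Cd22 was below the floor on all 7 arrays. Cd79b was lowest on replicate 4, at 42.1, and had 51.8 on replicate 3. The platelet markers Pf4, Gp9, Gp1bb and Itgb3 summed to 118 to 223, highest on replicate 8 and next highest on replicate 3, at 220. Gp1bb and Itgb3 were below the floor on all arrays. The red cell genes Hba-a1 and Alas2 summed to 7738 on replicate 3 and 7851 on replicate 1, against 10339 or more on the other 5. Hba-a1 weighs most in this sum and was lowest on replicate 3, at 7133. Alas2 had 605 there and was lower on replicates 4, 6 and 8, at 601, 577 and 576.

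Matrix and hepatocyte genes were read in the same way. Stellate cell and fibroblast markers, 7 genes, summed to 8253 on replicate 3, within the 7379 to 8907 of the other 6 animals. None of the 7 was lowest there, against 13.5% of all named genes. The hepatocyte genes Alb, Apoa1, Ttr and Cps1 summed to 100235 on replicate 3, the highest, against 78082 to 92036 on the others. Alb, Apoa1 and Cps1 were each highest there, while Ttr was second lowest, at 6882. Endothelial markers summed to 3526 on replicate 3, against 4598 to 5514 on the others, a sum in which Eng weighs most. The part of the other cell types in the low endothelial values of replicate 3 was not tested. Its Gapdh and beta-actin 3' to 5' ratios, 0.804 and 1.56, lay inside the range of the other arrays, and its spike-in signal, 10.97, was the highest of the 7.

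**Figure D4:**
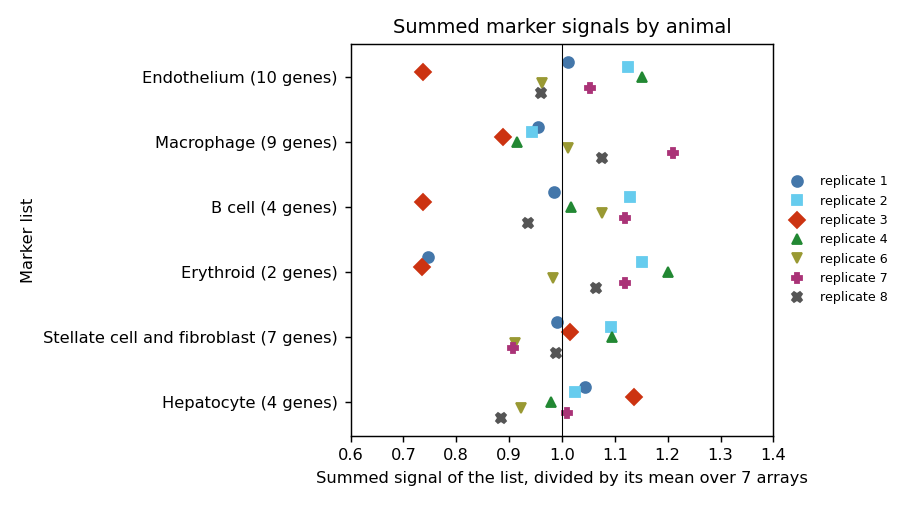
Summed scaled signal of 6 lists of cell type markers on each of the 7 animals, divided by the list's mean over the animals. Replicate 3 (red diamond) lies at 0.736 for endothelium, 0.738 for B cells, 0.736 for erythroid genes and 0.888 for macrophages. It lies at 1.01 for stellate cells and fibroblasts, and at 1.14, the highest animal, for hepatocytes.

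The ligands and partners of these receptors were measured as well. Lists of 89 genes of endothelial signalling, sinusoids and vessels had 72 measured genes and 29 tested genes besides the members. None of the 29 passed the limma-based test of spread at an adjusted p under 0.05, where 0% of all tested genes passed. An unadjusted limma-based p under 0.05 was found for 1 of the 29, against 6.72% of all tested genes. The median log2 SD of the 29 was 0.20. Replicate 3 was the lowest for 5 of these 29, or 17.2%, against 14.0% of all tested genes. It was the lowest for 14 of the 72 measured, against 13.5% of all named genes.

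In the VEGF system 9 of 10 listed genes were measured, 6 were tested and none passed the test of spread. Vegfa, the main ligand of Kdr and Flt1, had 971 ± 103 (SD, n = 7) and was lowest on replicate 3, at 787, against 906 to 1115 on the others. Vegfb, a ligand of Flt1, had 494 ± 49.4, and Nrp1, a co-receptor, had 1383 ± 155 (SD, n = 7 each). The hypoxia factors Hif1a and Epas1 had 1379 ± 206 and 385 ± 93.0 (SD, n = 7 each). Of the angiopoietin list, Angpt1 and Angpt2, ligands of Tek, were dim at 48.2 and 75.9, with Angpt1 below the floor on 4 of 7 arrays. Ptprb, a phosphatase that acts on Tek, had 181 ± 63.7, with 90.2 on replicate 6 as the lowest value and 295 on replicate 4 as the highest, and Angptl4, a secreted inhibitor of lipoprotein lipase, had 811 ± 122 (SD, n = 7 each).

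In the TGF-beta and BMP list all 19 genes were measured and 9 tested. Id2 had 3715 ± 859 (SD, n = 7), a limma-based p of 0.029 and an adjusted p of 0.600, and was highest on replicate 3, at 4900.0, where Eng was lowest. Id1, a target of BMP signalling, had 91.2 on replicate 2 as its lowest value and 346 on replicate 6 as its highest, and Id3 had 572 ± 95.1 (SD, n = 7). The signal carriers Smad1 and Smad4 had 670.2 ± 85.7 and 538 ± 87.9 (SD, n = 7 each). Tgfbr1, Tgfbr2 and Tgfb1 were below the floor on all 7 arrays. Among sinusoidal genes 10 of 19 were measured, with the scavenger receptor Stab1 at 511 ± 78.1, lowest on replicate 2 at 403, and the transcription factor Gata4 at 494 ± 106 (SD, n = 7 each). Lrp1, an uptake receptor that hepatocytes also carry, had 4668 ± 355 (SD, n = 7). F8, the coagulation factor made by sinusoidal endothelium, averaged 131 and was lowest on replicate 3, at 110.1, close to the 111.5 on replicate 1. Of the 10 measured sinusoidal genes 2 were lowest on replicate 3, against 13.5% of all named genes, and of the 3 tested 0 were. Gata4 was second highest on replicate 3, at 553.

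Of 31 general vessel genes, 26 were measured, 6 tested and 8 below the floor on all 7 arrays. The transcription factors Sox18, Sox7, Sox17 and Ets1 had means of 333, 219.8, 205 and 208, and Ramp2, a receptor subunit for adrenomedullin, had 352 ± 88.4 (SD, n = 7). Ets1 was lowest on replicate 3, at 164, but Sox18 and Sox7 were lowest on replicate 1, and Sox7 was highest on replicate 3, at 266. The catenins that bind cadherins were all tested: Ctnnb1 had 2808 ± 366, Ctnnd1 2946 ± 345, Ctnna1 639 ± 84.3 and Jup 569 ± 77.5 (SD, n = 7 each), and Ctnnd1 was the one lowest on replicate 3. Hepatocytes carry these catenins too.

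The 2 tested genes most like each tested member, by Pearson's r of log2 signals over the 7 animals, are given as a description. For Eng they were Gnas and Ints3 at r = 0.955 and 0.949. For Tie1 they were Lss and Rab9 at 0.969 and 0.961, and for Cdh5 Smdt1 and Ubl3 at 0.970 and 0.952. Mrc1 was most like Crcp and Fbln1, at 0.994 and 0.955, and Fcgr2b most like Ranbp1 and Xpo7, at 0.965 and 0.959. All 10 of these genes were, like the members they resembled, lowest on replicate 3. Kdr was most like Fto and Cyba, at 0.967 and 0.965, both lowest on replicate 1 as Kdr was. None of the 12 was on the lists of endothelial genes used here, and with 4480 genes compared over 7 animals, 6 to 19 genes reached an r above 0.9 with each member.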

How the data were processed

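The deposited file holds 1 linear intensity for each probe set and array, read, per the labels, with a GeneArray scanner made by Hewlett-Packard. The scaling target and the software are not named in the labels. The numbers themselves showed that the authors had scaled them, since the mean after trimming 2% at each end was 500.36 to 500.39 on every array. No detection calls were used.

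Of 12488 probe sets, 10833 that are no Affymetrix control carried 1 gene symbol in the platform annotation and were used. RefSeq's table for GRCm38.p6 held 10817 of them, with 0 symbols changed. Each array was rescaled to the same trimmed mean, values under 0.1 of it were set to that floor, and values were put on a log2 scale. The brightest probe set stood for its gene. This gave 8251 genes, and the 4481 whose mean reached 0.4 of the trimmed mean entered the tests. Means ± SD are of scaled values before the floor.

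Spread was tested with limma 3.58.1 (R 4.3.3) and a model holding just an intercept, each variance was set against a robust prior that follows the level (prior degrees of freedom 5.61), and p-values were adjusted over all tested genes by Benjamini-Hochberg at 0.05. The step was tested on simulated data. Correlations were tested two-sided by exact permutation, with all 5040 pairings enumerated and p adjusted within each family. Python 3.11.15, numpy 2.4.6, pandas 2.3.3 and matplotlib 3.10.9 were used.

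Members, lists and tests were chosen with earlier results of these data known. Named genes are the 10 members, the 4 brightest and 2 most variable genes of each list, the 2 genes most like each tested member, and the macrophage genes listed for comparison with Mrc1 and Fcgr2b. Marco, Tgfbr1, Tgfbr2 and Tgfb1 were named after their values were seen. Alternatives changed the scaling, floor, filter, probe set rule, variance prior and array set, and left out each array. The count of members lowest on replicate 3 was added after seeing the data.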

Additional observations from a re-analysis of the deposited data

Results flagged for a closer look

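The 7 log2 signals of each of the 10 members and of 55 genes named from the lists were examined for an animal far from the others, by the gap to the nearest animal as a share of the whole range. Chance alone gives about 1 in 20 such results. Among members it was Tie1: replicate 3, at 228, was separated from replicate 6, at 331, by 0.623 of the range, above Dixon's critical value. On the second Tie1 probe set the 2 lowest animals were close, with 139 on replicate 3 and 140 on replicate 1. Of the list genes, the catenin Jup stood out on replicate 2, at 729 against 479 to 571 on the others (0.580 of the range). The smooth muscle gene Cnn1 stood out on replicate 1, at 118, with the other 6 arrays below the floor, so the gap is the whole range (1).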

How the results depend on the processing

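No tested member passed the test of spread under any alternative run, and none of the 10 relations with macrophage genes passed. The count of member pairs that passed was 0 with the settings used, 1 with quantile normalization (Eng and Tie1) and 0 to 3 when single arrays were left out. The 3 came without replicate 1 (Eng with Tie1, Eng with Fcgr2b and Fcgr2b with Tie1, at r = 0.946, 0.951 and 0.950, adjusted p = 0.035 each by exact permutation), and the cause was not tested. Over the alternatives the adjusted p of Eng and Tie1 ran from 0.035 to 0.556 (exact permutation), and its r from 0.812 to 0.953. Replicate 3 was lowest for 7 of 10 members with no scaling, median centring or quantile normalization and with probe sets averaged too, and for 8 of all 13 probe sets. Some correlations that passed in no setting changed sign, and the cause was not tested. With single arrays left out, r ran from -0.260 to 0.759 for Cdh5 and Eng, -0.423 to 0.542 for Cdh5 and Fcgr2b, -0.378 to 0.515 for Cdh5 and Mrc1, -0.242 to 0.846 for Cdh5 and Tie1, -0.449 to 0.495 for Eng and Mrc1, and -0.423 to 0.180 for Kdr and Tie1, each at its sign change without replicate 3. For Fcgr2b it ran from -0.684 to 0.325 with C1qa, -0.116 to 0.715 with C1qb, -0.431 to 0.237 with Cd68, -0.225 to 0.417 with Clec4f and -0.180 to 0.495 with Csf1r. For Mrc1 it ran from -0.135 to 0.520 with C1qa, -0.636 to 0.068 with Cd68 and -0.306 to 0.571 with Clec4f. Mrc1 and Clec4f had r = -0.028 with median centring and -0.377 with set means removed, where Fcgr2b and Clec4f had -0.083. Values close to the floor may be background, which limits Vwf and the second probe sets of Flt1 and Vwf. No paired analysis was possible because all samples form 1 group.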
